A study of Mus musculus with 24 samples.

Results

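SOX9 is the HMG-box transcription factor that specifies hair follicle stem cells and that can bind its sites in closed chromatin. AP1 is the family of FOS and JUN dimers that keeps enhancers of the epidermis accessible. AFOS is a dominant-negative FOS that pairs with AP1 partners and keeps them off DNA. The comparison described here is that of chromatin accessibility in cultured mouse epidermal stem cells (EpdSCs) given AFOS alone with that in EpdSCs given SOX9 and AFOS together, read out by ATAC-seq, an assay that tags open DNA with a transposase. The design asks what SOX9 does to chromatin in cells made to express AFOS, and AP1 binding itself was not measured in these lists. The AFOS peak list (60231 peaks) and the SOX9+AFOS peak list (49458 peaks) were merged wherever peaks overlapped by at least 1 bp, which gave 75530 regions out of 134385 regions in the union of all 12 lists of the series. Of these, 15497 (20.5%) had a peak in SOX9+AFOS only, 26571 (35.2%) in AFOS only and 33462 (44.3%) in both.

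The series held 24 samples in 12 groups, and 4 samples enter here, 2 for each arm. The EpdSCs came from the back skin of newborn male CD1 pups and were grown in low-calcium medium. Cells of the AFOS arm carried Krt14-rtTA, the doxycycline (DOX)-dependent activator driven by the keratin 14 promoter of basal keratinocytes, and a FLAG-tagged AFOS under the TRE promoter that this activator drives. Cells of the SOX9+AFOS arm carried the same activator and AFOS together with a TRE-driven myc-tagged Sox9. According to the methods AFOS was delivered by lentivirus, with puromycin selection, into EpdSCs with the activator alone or with the activator and the Sox9 transgene, so the arms differ in the parental culture as well as in SOX9. Both arms received DOX at 1 µg per ml. The labels give no duration for them, and the peak names record 3 days. Other lists served as readouts that the merging did not use: cultured EpdSCs that got no DOX (noDOX), that made intact SOX9 (WT-SOX9) or a SOX9 that lacks either the HMG box that binds DNA (ΔHMG-SOX9) or the part that activates transcription (ΔTA-SOX9), and that made SOX9 and ARID1a, which belongs to the chromatin remodeller SWI/SNF (SOX9+ARID1a), and EpdSCs sorted from skin before (D0) and at weeks 1, 2, 6 and 12 (W1 to W12) of SOX9 induction, where W12 came from skin grafted onto immunocompromised mice and the earlier ones did not.

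Each arm is represented by a single list called on merged replicates. No spread between replicates could be had, no test was possible, and the intervals given below (95%, Wilson) cover counting error over regions only. Read depth is unknown. Promoters of 6 of 6 basal keratinocyte markers had a peak in both lists. Exon-bounded peaks of Sox9 past its first exon, the trace of an intronless coding sequence, were present at exons 2 and 3 in SOX9+AFOS (highest score 5.11) and absent in AFOS, while noDOX had 1 (3.71). SOX9+ARID1a, with the same transgene, had them at exons 2 and 3 as well (4.14). Elsewhere the trace did not track the labels. WT-SOX9, ΔHMG-SOX9 and ΔTA-SOX9, which carry Sox9 constructs, had no exon-bounded peak, and uninduced D0 had 1 with a higher score (13.5). Peaks that extend past an exon are not counted, and the peaks at exons 2 and 3 in SOX9+AFOS did overlap a WT-SOX9 peak. The widest peak was 10772 bp in WT-SOX9 and 3583 bp in SOX9+AFOS, and the part of peak width in this was not tested. Arid1a, which neither label names, had 8 exon-bounded peaks past its first exon in AFOS (highest score 8.69) and 7 in SOX9+AFOS (7.86), against 12 in SOX9+ARID1a (38.2) and 1 in noDOX. Fos had none in any list, so the AFOS construct could not be checked in this way. Since the Arid1a values go against the labels, AFOS and SOX9+AFOS stand below for the lists labelled so, and every direction given is one between these labels. Peak scores on whole chromosomes also differed between the lists, as described at the end, where the SOX and AP1 shares are given within chromosomes.

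Sequences of 8 regions are shown first because they carry the letters that separated the classes. Each is the central 200 bp of a region that lies outside annotated exons, read from GRCm38 on the plus strand, with the match in capitals. Matches were sought on both strands: ACAATAG or ACAATGG for SOX (reverse CTATTGT or CCATTGT) and TGACTCA or TGAGTCA for AP1, which are the reverse of each other. The 4 with a SOX match are the highest-scoring such region only in SOX9+AFOS (6524 bp upstream of Trpv4, a calcium channel gene), the 2 highest-scoring ones that also had a peak in WT-SOX9 and none in noDOX (nearest Bmp2k and Olig3), and the region of both lists with the largest rise in score rank among those with a match (7274 bp upstream of Ptpn13, a tyrosine phosphatase gene).
Trpv4 region: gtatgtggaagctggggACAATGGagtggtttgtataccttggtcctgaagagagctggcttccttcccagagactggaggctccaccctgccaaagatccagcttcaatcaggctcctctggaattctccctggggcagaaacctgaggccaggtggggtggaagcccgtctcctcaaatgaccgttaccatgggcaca
Bmp2k region: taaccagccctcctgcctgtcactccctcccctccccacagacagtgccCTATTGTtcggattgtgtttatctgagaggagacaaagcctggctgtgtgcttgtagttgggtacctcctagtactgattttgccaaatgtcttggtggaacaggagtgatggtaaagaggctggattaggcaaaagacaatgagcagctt
Olig3 region: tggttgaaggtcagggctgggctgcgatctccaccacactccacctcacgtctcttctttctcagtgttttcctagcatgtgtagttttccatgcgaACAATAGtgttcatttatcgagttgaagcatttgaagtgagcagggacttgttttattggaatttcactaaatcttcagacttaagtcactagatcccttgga
Ptpn13 region: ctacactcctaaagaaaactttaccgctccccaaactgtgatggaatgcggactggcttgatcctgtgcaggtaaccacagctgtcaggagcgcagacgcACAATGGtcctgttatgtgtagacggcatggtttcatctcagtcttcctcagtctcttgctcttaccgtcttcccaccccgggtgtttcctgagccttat
These windows lie at chr5:114664845-114665044, chr5:96957035-96957234, chr10:19208297-19208496 and chr5:103418127-103418326 in that order, and all 4 are intergenic. The Trpv4 region had a SOX9+AFOS score of 108 and no AFOS peak, and was also open in noDOX, WT-SOX9, SOX9+ARID1a, W2, W6 and W12. The Bmp2k region scored 70.8 and the Olig3 region 67.8, and both were open in WT-SOX9, SOX9+ARID1a, W6 and W12, the Bmp2k region also in W2. The Ptpn13 region scored 3.21 in AFOS and 71.4 in SOX9+AFOS.

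Windows with an AP1 match are 2 of the 4 highest-scoring such regions only in AFOS (nearest AA986860, and in an intron of Zc3h7b), the highest-scoring one of the regions nearest Sox9, and the region of both lists with the largest fall in score rank among those with a match (in an intron of Aig1, nearest the start site of Pex3, a peroxisome gene).
AA986860 region: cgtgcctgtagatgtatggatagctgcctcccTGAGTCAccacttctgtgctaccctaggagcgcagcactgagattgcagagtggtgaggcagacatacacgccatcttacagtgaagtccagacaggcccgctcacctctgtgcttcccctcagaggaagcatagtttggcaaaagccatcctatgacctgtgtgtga
Zc3h7b region: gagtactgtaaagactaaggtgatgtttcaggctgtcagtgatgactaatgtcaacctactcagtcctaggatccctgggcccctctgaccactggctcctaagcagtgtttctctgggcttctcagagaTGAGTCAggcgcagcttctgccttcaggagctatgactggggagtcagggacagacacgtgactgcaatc
Sox9 distal region: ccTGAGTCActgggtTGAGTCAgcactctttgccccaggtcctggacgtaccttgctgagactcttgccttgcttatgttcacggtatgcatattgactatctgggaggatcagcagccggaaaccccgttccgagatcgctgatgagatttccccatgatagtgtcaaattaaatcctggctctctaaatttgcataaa
Aig1 intron region: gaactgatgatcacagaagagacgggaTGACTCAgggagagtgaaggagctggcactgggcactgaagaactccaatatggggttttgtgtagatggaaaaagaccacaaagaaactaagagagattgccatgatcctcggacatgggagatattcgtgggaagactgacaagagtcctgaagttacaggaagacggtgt
They lie at chr1:130747238-130747437, chr15:81760411-81760610, chr11:112140898-112141097 and chr10:13684181-13684380. The AA986860 region had an AFOS score of 93.4, the Zc3h7b region 81.6 and the Sox9 region 63.1, none of them with a SOX9+AFOS peak. All 3 were open in noDOX, WT-SOX9, ΔHMG-SOX9, ΔTA-SOX9 and SOX9+ARID1a. The Sox9 region holds 2 AP1 matches and lies at -641226 bp from the start of the gene. The Aig1 intron region scored 54.9 in AFOS and 3.11 in SOX9+AFOS.

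Most regions of a single list had low scores. The score is the normalized peak score the authors deposited, and no peak under 3 was kept. Regions only in SOX9+AFOS had a median score of 5.86 (quartiles 4.04 and 10.3) and those only in AFOS a median of 6.38 (4.10 and 11.01), whereas regions of both lists had medians of 15.3 in SOX9+AFOS and 14.7 in AFOS. Scores under 5 made up 40.1% of the regions only in SOX9+AFOS and 36.7% of those only in AFOS, against 13.4% and 14.1% of the regions of both lists. In the lowest 10% of scores 61.9% of SOX9+AFOS regions and 71.3% of AFOS regions were absent from the other list. In the highest 10% the shares were 3.87% and 7.77%, that is 191 regions only in SOX9+AFOS and 468 only in AFOS. Few regions lay at the edge of the overlap rule. Only 7 regions of either kind came within 100 bp of a peak of the other list without touching it, and 1 region of both lists rested on an overlap under 50 bp.

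**Figure D1:**
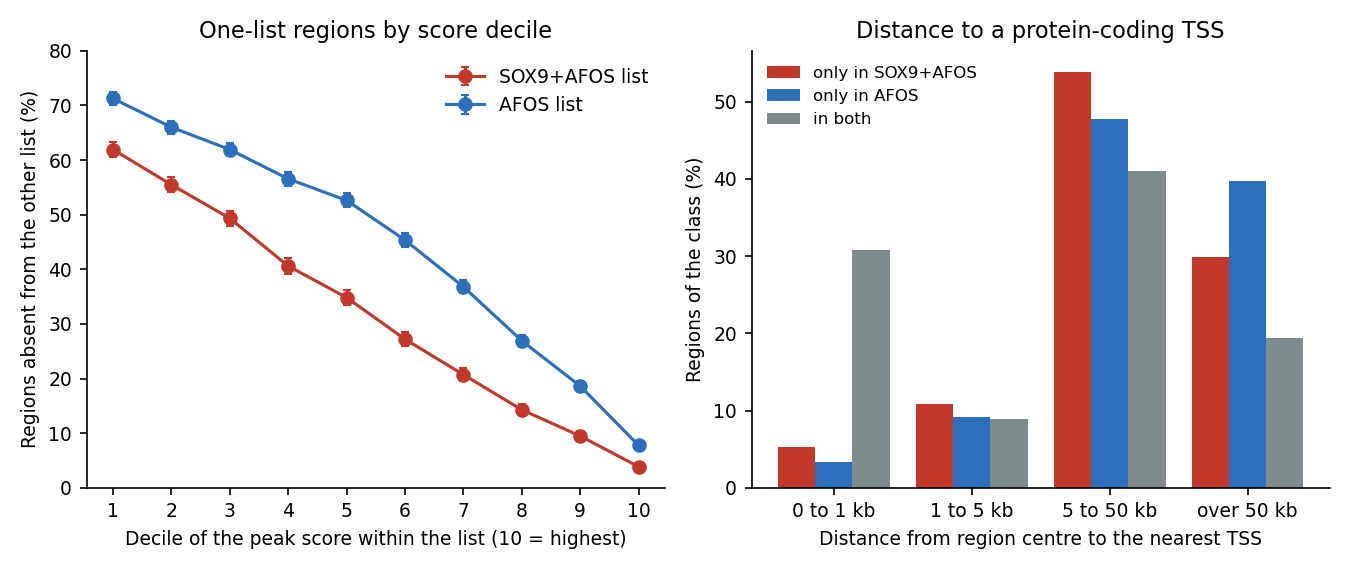
Left, share of regions absent from the other list (y axis, %) by score class of 10% of the peaks within each list (x axis, 10 is highest), with 95% Wilson intervals. The share falls from 61.9% to 3.87% in SOX9+AFOS and from 71.3% to 7.77% in AFOS. Right, share of each class (y axis, %) by distance from region centre to the nearest protein-coding start site (x axis), where 30.8% of the regions of both lists and at most 5.34% of the others lie within 1 kb.

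Unshared regions were mostly distal. Their centres lay within 1 kb of the transcription start site (TSS) of a protein-coding gene in 5.34% of regions only in SOX9+AFOS (95% interval 4.9998 to 5.71%) and in 3.32% of those only in AFOS (3.11 to 3.55%), against 30.8% of the regions of both lists. The median distance to a TSS was 23930 bp, 33782 bp and 10591.5 bp respectively. Beyond 50 kb lay 29.9% of the regions only in SOX9+AFOS, 39.8% of those only in AFOS and 19.4% of those in both. Introns held 52.8%, 52.3% and 43.1% of the 3 classes, and intergenic sequence 39.2%, 41.7% and 35.2%. Unshared regions were also narrower, with median widths of 426 bp (SOX9+AFOS) and 354 bp (AFOS) against 683 bp.

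Regions only in SOX9+AFOS held SOX matches more often and AP1 matches less often than the other classes. A SOX match lay in the central 200 bp of 9.01% of them (8.57 to 9.48%), against 4.39% of the regions only in AFOS (4.15 to 4.65%) and 3.74% of the regions of both lists (3.54 to 3.95%). AP1 matches were fewest in that class, at 4.76% of the regions only in SOX9+AFOS (4.43 to 5.10%), 40.0% of those only in AFOS (39.5 to 40.6%) and 15.1% of those in both (14.7 to 15.5%). Of 32851 RefSeq promoters on GRCm38, 4.10% held a SOX match and 3.66% an AP1 match in the 200 bp upstream of the start. The classes differ in their share within 1 kb of a TSS, at 30.8% of the regions of both lists and at most 5.34% of the others. Over the regions farther away the SOX shares were 9.31% (only in SOX9+AFOS), 4.44% (only in AFOS) and 4.66% (in both). The AP1 shares there were 4.90%, 40.7% and 20.6%. A SOX and an AP1 match together were present in 0.523% of the regions only in SOX9+AFOS and in 1.72% of those only in AFOS.

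SOX matches gathered at the centre of regions only in SOX9+AFOS, where 25.3 matches per 1000 regions fell in each 50 bp of the central 100 bp against 11.7 in the flanks from 300 to 500 bp, a ratio of 2.16. That ratio was 0.84 in regions only in AFOS and 1.00 in regions of both lists. For AP1 it was 1.66 in regions only in SOX9+AFOS, 14.1 in regions only in AFOS and 4.50 in regions of both lists. The control consensus TBX, described next, had ratios of 1.67, 1.90 and 1.25 in these classes, so that AP1 in regions only in SOX9+AFOS did not exceed it. The share with a SOX match was larger at higher scores, going from 8.37% of the regions only in SOX9+AFOS that ranked below the median of the list to 11.1% above it and 14.1% in the top 10% (191 regions, 95% interval 9.90 to 19.8%). AP1 matches in regions only in AFOS differed little with the score, at 39.1% below the median, 42.2% above it and 39.3% in the top 10%.

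**Figure D2:**
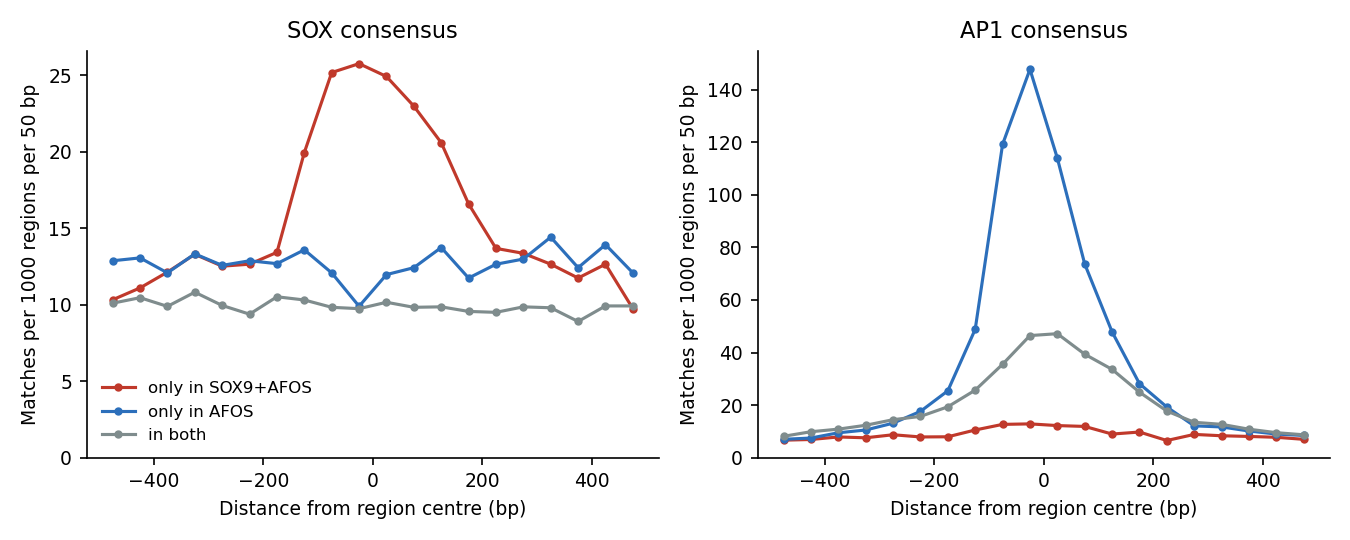
Consensus matches per 1000 regions per 50 bp (y axis) by distance from the region centre in bp (x axis), for SOX (left) and AP1 (right) in regions only in SOX9+AFOS (red), only in AFOS (blue) and in both (grey). SOX matches peak at the centre only of the red class, with a centre to flank ratio of 2.16, and AP1 matches peak at the centre of the blue class, with a ratio of 14.1.

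Of the other consensus sequences, that of TEAD, the partner of YAP (ACATTCC), was present in 8.61%, 6.80% and 5.76% of the regions only in SOX9+AFOS, only in AFOS and in both. That of the KLF factors of epidermal differentiation (CCACACCC) was present in 6.90%, 2.48% and 4.09%. RUNX (TGTGGT) was at 18.5%, 19.97% and 15.2%, and AGATAA, bound by GATA factors, at 8.91%, 11.2% and 6.82%. CTCF, the insulator protein, was at 3.33%, 0.937% and 3.28%. TBX (AGGTGTGA), searched as a control, was at 1.39%, 1.502% and 1.05%. Over regions farther than 1 kb from a TSS, the shares in the same order were 8.90%, 6.89% and 7.67% for TEAD and 7.02%, 2.49% and 4.81% for KLF. They were 19.0%, 20.2% and 18.8% for RUNX and 9.16%, 11.3% and 8.89% for GATA. CTCF was there at 3.44%, 0.95% and 4.54% and TBX at 1.44%, 1.53% and 1.33%. The RefSeq promoter shares were 2.61% for TEAD, 2.72% for KLF, 11.2% for RUNX, 7.80% for GATA, 0.463% for CTCF and 0.907% for TBX. CTCF matches lay mostly in low-scoring regions, as their share was 4.24% below the median rank and 0.431% above it in regions only in SOX9+AFOS. The 6 further consensus sequences, a SOX pair of opposite orientation, CRE, full p63, NFI, GRHL and ETS sites, each occurred in at most 1.36% of any class.

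**Figure D3:**
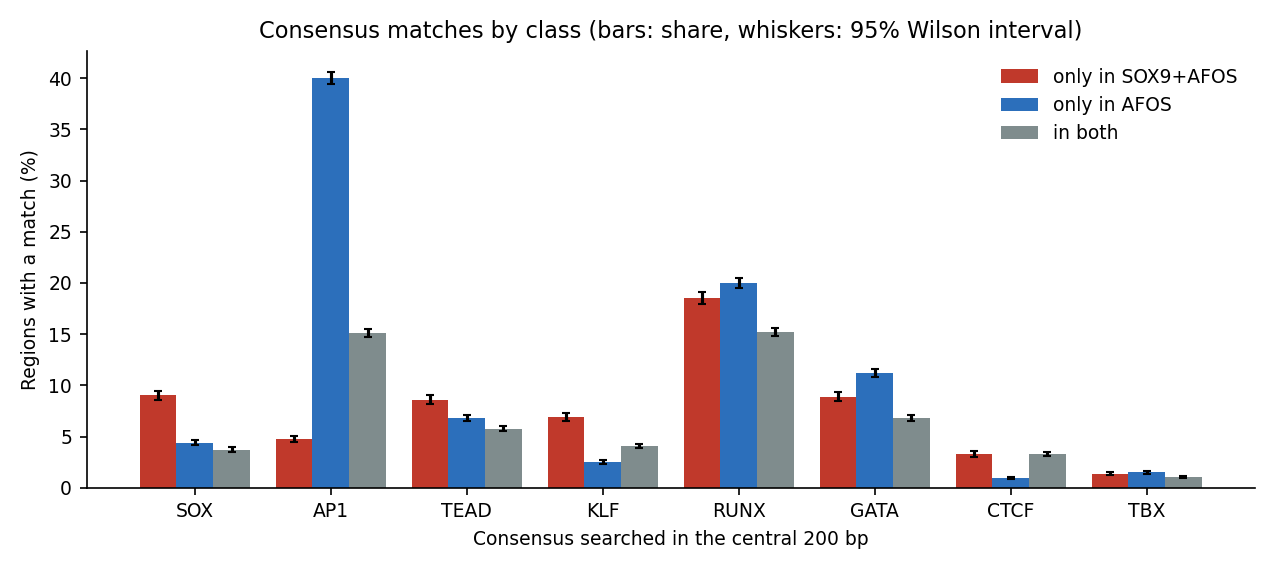
Share of regions (y axis, %) with each consensus in the central 200 bp (x axis) in regions only in SOX9+AFOS (red), only in AFOS (blue) and in both (grey), with 95% Wilson intervals. The classes stand farthest apart for AP1, at 4.76%, 40.0% and 15.1%, and SOX is highest in the red class at 9.01%.

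Regions only in SOX9+AFOS were open more often with wild-type SOX9 than without DOX, and regions only in AFOS the reverse. Of the regions only in SOX9+AFOS, 40.1% (39.3 to 40.8%) had a peak in WT-SOX9 and 26.8% (26.1 to 27.5%) in noDOX. The shares for regions only in AFOS were 27.9% (27.3 to 28.4%) and 51.3% (50.7 to 51.9%). With a score of at least 5 all of these shares were larger and kept their order, at 53.3% and 41.9% for regions only in SOX9+AFOS and 41.7% and 67.7% for those only in AFOS. Lists of the SOX9 forms that lack a domain went with the AFOS class, as ΔHMG-SOX9 had a peak in 13.1% of the regions only in SOX9+AFOS and in 59.3% of those only in AFOS, and ΔTA-SOX9 in 8.55% and 73.3%. SOX9+ARID1a, whose cells carry the same Sox9 transgene per the methods and whose peaks were also named as called from fragments, had a peak in 46.7% and 41.9%. Peaks of the other 9 lists were not named so and may have been called differently, and the part of this in the shares was not tested. Regions of both lists were open in 86.7 to 91.6% of cases in each of these 5 lists. None of the other 10 lists had a peak in 21.9% of the regions only in SOX9+AFOS, 13.003% of those only in AFOS and 1.04% of those in both.

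The subset of regions only in SOX9+AFOS that had a peak in WT-SOX9 and none in noDOX numbered 3749 (24.2%), and 17.2% of it held a SOX match. Among all regions only in SOX9+AFOS the SOX share was 13.1% with a WT-SOX9 peak and 6.30% without one. For regions only in AFOS the matching subset, with a noDOX peak and none in WT-SOX9, numbered 7384 (27.8%), of which 42.7% held an AP1 match and 2.97% a SOX match.

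In vivo, D0 had a peak in 28.8% of the regions only in SOX9+AFOS, W1 in 32.0%, W2 in 39.4%, W6 in 46.7% and W12 in 40.0%. For regions only in AFOS these shares were 21.3%, 19.2%, 23.2%, 32.8% and 37.7%. Regions open at W2 and not at D0 made up 15.1% of the class only in SOX9+AFOS (14.6 to 15.7%) and 6.47% of the class only in AFOS (6.18 to 6.78%), while those open at D0 and not at W2 made up 4.50% and 4.58%. The W6 and W12 lists were the longest of the series, at 75956 and 71503 peaks, and list length was not adjusted for. W12 also differs from the rest as grafted skin.

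**Figure D4:**
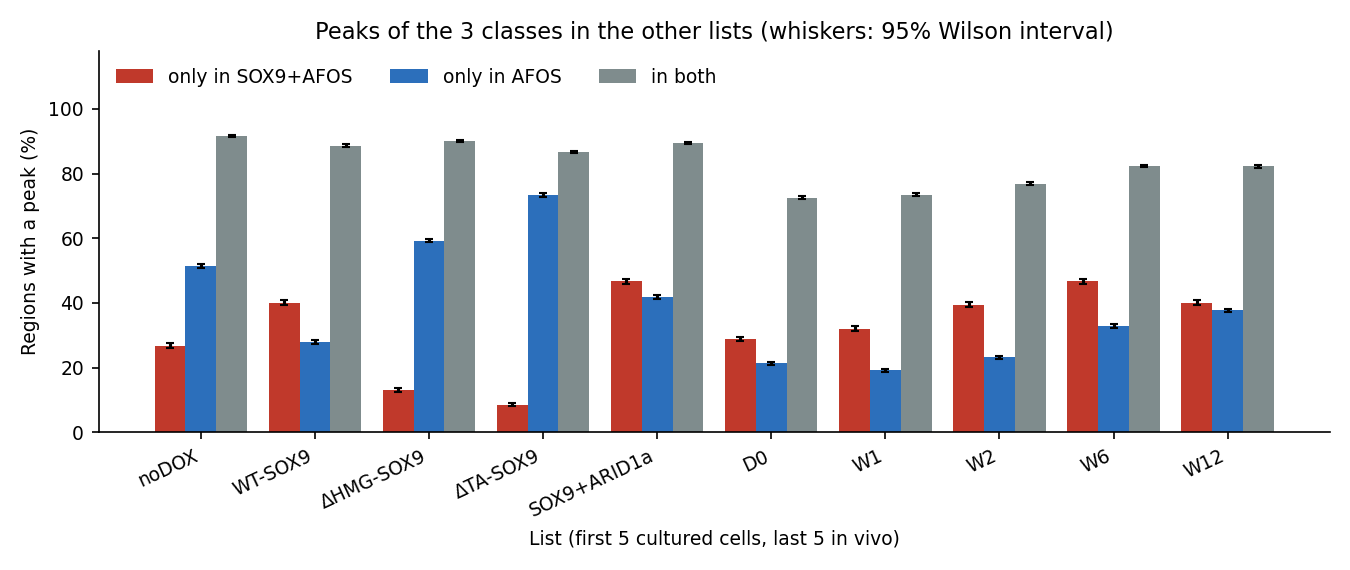
Share of regions with a peak (y axis, %) in each of the other 10 lists (x axis) for regions only in SOX9+AFOS (red), only in AFOS (blue) and in both (grey), with 95% Wilson intervals. The red bars exceed the blue ones in WT-SOX9 (40.1% and 27.9%), SOX9+ARID1a and the in vivo lists, and the blue ones exceed the red in noDOX, ΔHMG-SOX9 and ΔTA-SOX9 (73.3% and 8.55%).

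A step from noDOX to WT-SOX9, without AFOS, was set beside the step from the list labelled AFOS to that labelled SOX9+AFOS in the 87749 regions of these 4 lists. The steps differ in more than AFOS, since the former adds DOX as well as SOX9 and its SOX9 came from a lentivirus and not from the transgene, and its peaks were not named as called from fragments. With AFOS in both arms 15182 regions appeared (17.3% of all regions) and 26131 disappeared (29.8%), and without AFOS 14060 appeared (16.02%) and 14827 disappeared (16.9%). Regions that appeared in both steps numbered 3645, which is 24.0% of those with AFOS and 25.9% of those without. Those that disappeared in both numbered 7180, or 27.5% and 48.4%. Changes of opposite direction were fewer, with 1614 regions (10.6% and 10.9%) appearing with AFOS and disappearing without it and 1127 (4.31% and 8.02%) the reverse.

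Within the 33462 regions of both lists, scores were related but not the same, with Spearman's rho 0.577 between the lists as a description over regions that share libraries. The score rank, from 0 to 100 within each list, rose by 25 points or more from the list labelled AFOS to that labelled SOX9+AFOS in 3919 regions (11.7%) and fell by as much in 5556 (16.6%). Ranks rest on lists of unlike length, and by a 2-fold ratio of scores the order turned, with 5929 regions higher in SOX9+AFOS and 5223 lower. AP1 matches were present in 36.2% of the regions that fell, 6.66% of those that rose and 11.6% of the rest. SOX matches were present in 4.25%, 5.97% and 3.26%. Regions whose rank fell had a noDOX peak in 95.2% of cases and those whose rank rose in 83.3%. A WT-SOX9 peak was also more frequent in those that fell (88.4%) than in those that rose (79.9%), unlike in the unshared classes. Promoters carried higher scores in the list labelled SOX9+AFOS, with a median log2 ratio of 0.40 over the 10299 regions of both lists within 1 kb of a TSS, of which 79.6% scored higher in SOX9+AFOS, against 0.07 over regions farther away.

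Of the regions of both lists in the top 10% of either, the largest rise was at a region nearest Sertad4, 28943 bp from its start, with a score of 3.02 in AFOS and 82.0 in SOX9+AFOS. An intron of Vgll4, a TEAD cofactor gene, followed with 3.12 and 73.3, and the Ptpn13 region shown above with 3.21 and 71.4. An intron of Poldip2 (3.16 and 61.9) and one of Atp10d (3.03 and 56.4) came next. The largest falls were at a region nearest Nr5a2 (71.5 in AFOS and 3.14 in SOX9+AFOS), the Aig1 intron shown above, an intron of Ccdc33 (54.9 and 3.14), an intron of Nedd4l, a ubiquitin ligase gene (68.9 and 3.32), and an intronic region nearest Rorb (47.0 and 3.05).

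The 8 highest-scoring regions only in SOX9+AFOS were nearest Tsc22d4 (score 137, in a UTR), Zfp958 (132), Sulf2 (114, in an intron of this sulfatase gene), Med13l (113), C330021F23Rik (108), Trpv4 (108), Golph3 (99.01, in an intron of Mtmr12) and Spns2 (88.9, in an intron of Spns3). Of these, 6 had a noDOX peak, 7 a WT-SOX9 peak and 8 a SOX9+ARID1a peak. Only the Trpv4 region held a SOX match, beside 9.01% of the class. The Golph3 region was open in WT-SOX9, SOX9+ARID1a, W2, W6 and W12 alone, and the Spns2 region in SOX9+ARID1a alone. Tsc22d4, Med13l and Trpv4 lie on chromosome 5 and Zfp958 and C330021F23Rik on chromosome 8, where the median promoter score ratio favoured SOX9+AFOS.

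Regions only in AFOS with the 8 highest scores were nearest Map3k8 (112), Synpo (101), Mbd2 (95.9), AA986860 (93.4), Lama3 (88.1, over a coding exon of this laminin gene of the basement membrane), Zc3h7b (81.6), Ralgps1 (80.3) and B4galt6 (76.7). All 8 were open in noDOX, WT-SOX9, ΔHMG-SOX9, ΔTA-SOX9 and SOX9+ARID1a, and 4 held an AP1 match, beside 40.0% of the class. Map3k8, Synpo, Mbd2, Lama3 and B4galt6 lie on chromosome 18, where 43.3% of regions were only in AFOS. At promoters the highest scores only in AFOS were at Csf1r (63.5), the receptor gene of macrophages, Clec2h (57.1), Cpa4 (52.1), Tmem218 (44.0) and Enox2 (42.7). Those only in SOX9+AFOS were at C330021F23Rik (108), Smtn (52.3), Tppp3 (52.0), Slc10a6 (49.0) and Lemd1 (48.2). Promoter regions of 554 genes were found only in SOX9+AFOS and those of 591 genes only in AFOS, out of 10954 genes with a promoter region in either list.

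Every region was assigned to the protein-coding gene with the nearest TSS, 16310 genes in all, of which 7217 had a region only in SOX9+AFOS, 9771 a region only in AFOS and 4753 both. A gene with a large territory collects more regions of any class. Klf3, a repressor of the KLF family, Lpp and Tbc1d1 had the most regions only in SOX9+AFOS, 19 each, against 8, 19 and 6 only in AFOS. Klf3 and Tbc1d1 neighbour each other on chromosome 5. Slc39a11, the zinc transporter gene next to Sox9 on chromosome 11, had 18 against 4. Of the 18, 14 were open in WT-SOX9 and 3 held a SOX match, beside 40.1% and 9.01% of all regions only in SOX9+AFOS. Foxp1, a forkhead factor of hair follicle stem cells, had 17 against 27. Tied behind it at 16 were Pik3r1, Runx1, Zfhx3, Zfp608 and Zmiz1. Pik3r1, a PI3-kinase subunit gene, had 16 of its 22 regions only in SOX9+AFOS although it lies on chromosome 13, where such regions were fewest (14.8%).

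Zfp608 had the most regions only in AFOS (40 of 82), followed by Sox9 (34 of 66), Flrt3 (33 of 53), Myc (32 of 78) and Dlg2 (30 of 38). The regions only in AFOS nearest the endogenous Sox9 gene reached up to 803 kb from its start, 24 of the 34 had a noDOX peak, 11 a WT-SOX9 peak, 20 an AP1 match and 1 a SOX match, beside 51.3%, 27.9%, 40.0% and 4.39% of all regions only in AFOS. Of the 10 regions nearest Sox9 found only in SOX9+AFOS, 5 had a WT-SOX9 peak, 1 held a SOX match and 1 an AP1 match, beside 40.1%, 9.01% and 4.76% of that class. These 10 include the peaks at exons 2 and 3 named above (scores 4.61 and 5.11), both with a WT-SOX9 peak, where reads of the transgene and of the endogenous gene cannot be told apart. The Sox9 promoter itself scored 22.8 in AFOS and 13.3 in SOX9+AFOS. Nearest Myc, the growth regulator, 17 of the 32 regions only in AFOS held an AP1 match and none of the 11 only in SOX9+AFOS did, beside 40.0% and 4.76% of these classes as a whole.

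Factors of hair follicle stem cells are those that hold the hair follicle stem cell state, several of them known to lie downstream of SOX9. Regions nearest the 14 genes of this list numbered 299, of which 82 (27.4%, 22.7 to 32.7%) were only in SOX9+AFOS and 111 (37.1%, 31.8 to 42.7%) only in AFOS, beside 20.5% and 35.2% over all regions. The chromosomes of these regions would give 20.4% and 34.5%. Counted instead within gene bodies and 10 kb around them, the shares were 33.6% and 24.6% of 134 regions, the reverse order. Runx1, a factor of hair follicle activation, had 16 regions only in SOX9+AFOS and 10 only in AFOS, and lies on chromosome 16, where 27.4% of regions were only in SOX9+AFOS. The highest of the former lay in a Runx1 intron (score 45.6) and was open in noDOX, WT-SOX9, SOX9+ARID1a and all in vivo lists, and the next, at -216750 bp from its start (43.1), was open in WT-SOX9, SOX9+ARID1a and all in vivo lists and not in noDOX. Tcf7l2 and Nfib had 11 and 10 regions only in SOX9+AFOS against 10 and 8 only in AFOS. Tbx1, a factor of stem cell self-renewal, had 6 against 1, but its promoter peak was in AFOS alone (5.89). Gata6 had 0 against 14, of which 6 held an AP1 match, near the 40.0% of the class, and lies on chromosome 18, where 16.1% of regions were only in SOX9+AFOS and 43.3% only in AFOS.

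Epidermal identity factors, such as Trp63 (p63, the master factor of stratified epithelia), Gata3 and the KLF and GRHL factors, had 306 regions, of which 22.5% were only in SOX9+AFOS and 31.4% only in AFOS. The chromosomes of these regions would give 21.1% and 34.9%. Within gene bodies and 10 kb both shares were 19.8% of 101 regions. Members differed. Gata3 had 4 regions only in SOX9+AFOS and 29 only in AFOS, 14 of them with an AP1 match (40.0% in the class), and Trp63 had 3 and 11. Klf5 had 10 and 7, Tfap2c 9 and 4, Cebpb 9 and 5 and Zfp750, a regulator of terminal differentiation, 5 and 0. Promoter scores of Tfap2c were 25.8 in AFOS and 50.3 in SOX9+AFOS, and those of Tfap2a 19.5 and 13.2.

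AP1 subunit genes themselves had 101 regions, of which 22.8% (15.7 to 31.9%) were only in SOX9+AFOS and 26.7% (19.1 to 36.1%) only in AFOS. Fosl1, which encodes FRA1, had 3 regions only in AFOS and none only in SOX9+AFOS, and its promoter scored 56.7 in AFOS and 35.2 in SOX9+AFOS. Jun had 10 regions only in AFOS and 2 only in SOX9+AFOS, with promoter scores of 34.8 and 45.7. Fosl2, which encodes FRA2, had 9 of each. Fos (3 and 1), Junb (2 and 0), Jund (1 and 0), Mafk (2 and 0) and Batf (1 and 0) had more regions only in SOX9+AFOS than only in AFOS. The SOX family list leaves out Sox9, whose counts are given above. It had 140 regions, 27.1% (20.5 to 35.05%) only in SOX9+AFOS and 43.6% (35.6 to 51.8%) only in AFOS, beside 18.9% and 38.2% from their chromosomes. Within gene bodies and 10 kb the order was the reverse, with 36.2% and 22.4% of 58 regions. Sox6 had 9 and 5 and Sox11 had 7 and 22, and a promoter peak of Sox2 was present in SOX9+AFOS alone (11.6). Of RUNX genes other than Runx1, Runx2 had no region only in SOX9+AFOS and 13 only in AFOS, of which 9 held an AP1 match, beside 40.0% of the class.

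Signalling lists spanned 22.2 to 25.8% only in SOX9+AFOS and 25.2 to 44.2% only in AFOS, beside 20.5% and 35.2% over all regions. In the Hedgehog pathway, which drives basal cell carcinoma, the shares were 24.2% and 44.2% (34.6 to 54.2%) of 95 regions, beside 20.2% and 38.1% from their chromosomes. Its ligand gene Shh had 1 region only in SOX9+AFOS and 7 only in AFOS, its receptor gene Ptch1 3 and 3, and the effector genes Gli2 and Gli3 7 and 11 and 2 and 9. WNT pathway genes had 25.8% and 32.1% of 221 regions, beside 21.1% and 34.1% from their chromosomes. The receptor gene Fzd10 had 9 of 10 regions only in SOX9+AFOS, including its promoter (score 22.9), with no region only in AFOS. The Fzd10 promoter was open in noDOX, WT-SOX9, SOX9+ARID1a and all in vivo lists, and the gene lies on chromosome 5. Fzd7 had 8 and 2, Wnt5a had 0 and 7, and Dkk3, a secreted WNT modulator gene, 0 and 7.

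TGF-beta and BMP pathway genes had 25% and 32.3% of 248 regions, beside 18.9% and 38.2% from their chromosomes. Bmp7, a BMP ligand gene, had 8 regions only in SOX9+AFOS and 1 only in AFOS. Its promoter had a score of 39.1 in SOX9+AFOS and no AFOS peak, and was open in all of the other 10 lists. Fst, which encodes the BMP and activin antagonist follistatin, had 5 and 1, while the receptor gene Tgfbr2 had 7 and 12 and the inhibitor gene Smad7 5 and 12. Notch pathway genes had 22.2% and 32.4% of 176 regions, beside 22.2% and 33.3% from their chromosomes, with 10 and 15 for the ligand gene Jag1. EGF receptor pathway genes had 22.5% and 25.2% of 111 regions, beside 24.7% and 30.4%, with 7 and 4 for the ligand gene Areg.

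Of the structural genes of the keratinocyte, keratin and differentiation genes had regions at median distances of 3188 bp and 4552 bp from a start site and adhesion genes at 19199 bp, against 20111 bp over all regions. Keratin genes had 43 regions, 23.3% (13.2 to 37.7%) only in SOX9+AFOS and 9.30% (3.68 to 21.6%) only in AFOS. The Krt14 promoter scored 30.6 in AFOS and 30.9 in SOX9+AFOS and that of Krt5 7.64 and 8.93. Other keratin promoters differed, as that of Krt16, a keratin of stressed epidermis, scored 50.6 and 12.1, that of Krt8 30.2 and 17.6, that of Krt18 9.87 in AFOS alone and that of Krt15 4.55 in SOX9+AFOS alone. Epidermal differentiation genes had 18.2% and 29.5% of 44 regions, with 6 regions only in AFOS for Tgm3 and none only in SOX9+AFOS. Adhesion and basement membrane genes had 17.3% and 35.0% of 294 regions. The integrin genes Itga2, Itgav and Itgb1 had 0, 1 and 2 regions only in SOX9+AFOS against 7, 8 and 9 only in AFOS, whereas the promoters of Itgb1 (26.4 in AFOS and 56.6 in SOX9+AFOS), Itgav (41.7 and 73.1) and Lamb3 (31.4 and 71.0) scored higher in SOX9+AFOS. SWI/SNF and MLL subunit genes had 29.8% and 25% of 124 regions (22.7% and 25% of 128 within gene bodies and 10 kb, the reverse order), with 13 and 5 for Arid1b and 9 and 9 for Smarca2.

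Mesenchymal and EMT factors, the genes of the epithelial to mesenchymal transition, had the highest share only in AFOS among the lists that are not of other cell types: 68 of 113 regions (60.2%, 51.0 to 68.7%), beside 40.1% from their chromosomes, with 14.2% only in SOX9+AFOS. Of their 29 regions of both lists the rank rose in 1 and fell in 14, beside 11.7% and 16.6% over all such regions, but within gene bodies and 10 kb in 1 and 2 of 8, where the share only in AFOS was 65.2% of 46 regions. Cdh2, which encodes N-cadherin, had 24 regions only in AFOS and 2 only in SOX9+AFOS, and its promoter scored 24.8 in AFOS and 4.33 in SOX9+AFOS. Zeb2 had 15 and 1, Zeb1 8 and 0 and Prrx1 4 and 0, and the Snai1 promoter scored 42.8 and 16.6. Vim, with 4 regions only in SOX9+AFOS and none only in AFOS, and Twist2, with 5 and 3, had more regions only in SOX9+AFOS, although the rank fell in all 3 Twist2 regions of both lists, and the Snai2 promoter scored 26.1 in AFOS and 62.04 in SOX9+AFOS.

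Regions nearest fibroblast genes moved with that list, 21 of 25 being only in AFOS and 1 only in SOX9+AFOS (5 and 3 of 10 within gene bodies and 10 kb). At the promoters of the 7 fibroblast markers, peaks were present for Pdgfra (9.42 in AFOS and 16.96 in SOX9+AFOS) and Col1a1 (5.81 in AFOS, none in SOX9+AFOS), while Col1a2, Col3a1, Lum, Dcn and Dpt had none in either list. Melanocyte markers had a promoter peak in 1 of 7 in AFOS and 3 of 7 in SOX9+AFOS, with Mitf, at 50.1 in noDOX, at 61.4 and 80.3 and Dct at 17.7 in SOX9+AFOS alone. Regions nearest melanocyte genes numbered 5 only in SOX9+AFOS and 14 only in AFOS (45.2%, 29.2 to 62.2%), those nearest immune genes 3 and 11 (50%, 30.7 to 69.3%) and those nearest endothelial genes 7 and 6 (30%, 14.5 to 51.9%), intervals that all hold the 35.2% of all regions. Among 6 immune markers Csf1r alone had a promoter peak, in AFOS, and Ptprc, the defining gene of leukocytes, had none in either list. Of 4 endothelial markers, Pecam1 had a promoter peak in AFOS alone (3.91) and Kdr in SOX9+AFOS alone (4.35). The part of other cells in these counts was not tested, and in bulk samples fewer cells of a type and less open chromatin per cell cannot be told apart.

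Whole chromosomes differed between the lists. Chromosome 5 had 31.9% of its regions only in SOX9+AFOS and 23.4% only in AFOS, chromosome 16 had 27.4% and 29.1% and chromosome 8 had 24.6% and 29.2%, against 14.8% and 46.5% on chromosome 13. Promoter scores moved with these shares on the 4 chromosomes, as the median log2 ratio of SOX9+AFOS to AFOS over promoters of both lists was 1.06 on chromosome 5, 0.80 on chromosome 16, 0.70 on chromosome 8 and -0.03 on chromosome 13, around a median of 0.42 over the 20 chromosomes. Low ratios also went with low shares only in SOX9+AFOS on chromosomes 7 (0.07 and 16.3%), 6 (0.15 and 16.7%), 19 (0.17 and 17.9%) and 18 (0.19 and 16.1%), beside 20.5% over all regions. The share only in AFOS was high on chromosomes 6 (43.6%) and 18 (43.3%). It was 35.9% and 33.05% on chromosomes 7 and 19, beside 35.2% over all regions. Chromosome X departed, with a ratio of 0.62 and shares of 18.1% and 39.3%. In 9316 promoter regions shared by all 7 culture lists, the level of chromosome 5 stood 0.47 (log2) above the median list in SOX9+AFOS and 0.46 above it in SOX9+ARID1a, against -0.16 in AFOS and 0.15 in noDOX. Chromosome 13 stood at -0.44 in SOX9+AFOS and -0.43 in SOX9+ARID1a, against -0.06 in AFOS. The leading class for SOX and for AP1 matches was the same on each chromosome. The SOX share was higher in regions only in SOX9+AFOS than in the other classes on 20 of 20 chromosomes (7.42 to 11.1%, against 2.58 to 6.01%), and the AP1 share was highest in regions only in AFOS on 20 of 20 (36.9 to 43.8%, against at most 18.2%).

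**Figure D5:**
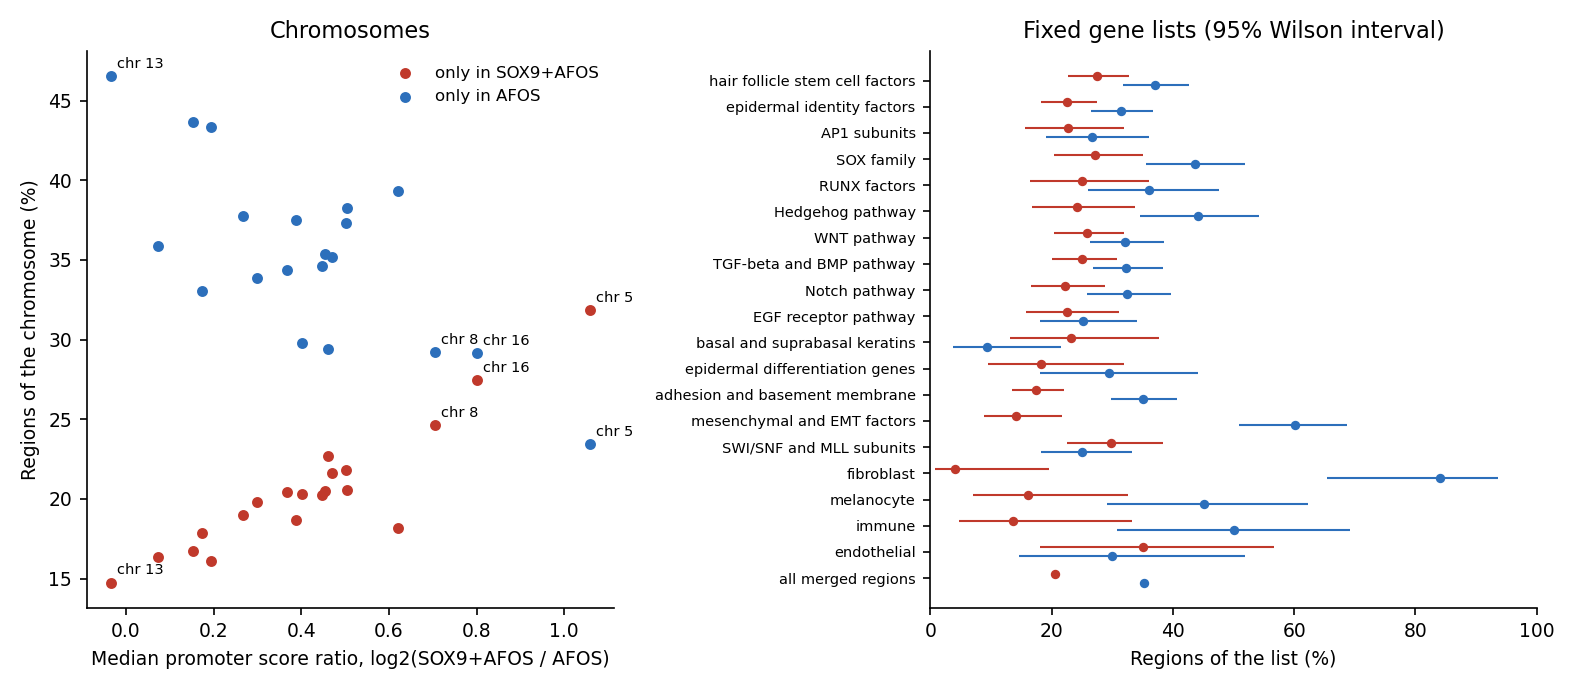
Left, share of each chromosome's regions (y axis, %) only in SOX9+AFOS (red) or only in AFOS (blue) by the chromosome's median log2 promoter score ratio of SOX9+AFOS to AFOS (x axis), where chromosome 5 lies at 1.06 with 31.9% and 23.4%. Right, share of regions (x axis, %) in the same colours for the 19 gene lists and all regions, with 95% Wilson intervals, where mesenchymal and EMT factors lie at 14.2% and 60.2% and all regions at 20.5% and 35.2%.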

How the data were processed

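ATAC-seq peak lists of cultured and sorted mouse EpdSCs were used as deposited, 1 list for each of 12 groups with 2 replicates merged by the authors. Per the methods, the authors used PEPATAC for alignment (GRCm38), pooled the replicates' alignments and ran MACS2 on them, with duplicates kept. The submitters' processing notes also list Bowtie2 2.2.9, Picard 2.3.0 and MACS2 2.1.1, with no role given. Column 5 of the deposited lists was read as the authors' normalized peak score, with a minimum of 3. Score totals were 932673 and 933302, so scaling to a common total is inferred. Read depth is unknown.

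Peaks of AFOS and SOX9+AFOS were merged at 1 bp of overlap. Region centres were assigned to the nearest protein-coding TSS of GENCODE M21, and 14 consensus sequences were sought in the central 200 bp on both strands. Scores were ranked within each list, and a shift of 25 points was counted. Python 3.11.15, numpy 2.4.6, scipy 1.17.1, pandas 2.3.3 and pysam 0.24.0 were used. The merging and counting were tested on simulated data. Named are the 8 highest-scoring unshared regions of each list, the 5 highest at promoters, the 5 largest rank shifts among regions in the top 10% of either list, the 5 genes with most unshared regions and members of 19 gene lists (238 genes). Other genes beside them, ties and the sequence windows were chosen after values were seen. The members and lists were chosen with earlier results of these data known. Alternatives were a higher score minimum, lists of equal size, a stricter overlap, regions seen in another list, whole regions, all annotated TSSs, a 2-fold score ratio and gene bodies.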

Additional observations from a re-analysis of the deposited data

How the results depend on the processing

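No paired analysis was possible because replicates were pooled before peak calling, and for the same reason no replicate could be left out. With a score of at least 5, the share within 1 kb of a TSS was 6.998% of regions only in SOX9+AFOS, the WT-SOX9 share of that class 53.3% and the noDOX share of regions only in AFOS 67.7%, while the opposing shares also went up, noDOX to 41.9% of regions only in SOX9+AFOS and WT-SOX9 to 41.7% of those only in AFOS. With lists of equal size, the TSS shares were 6.19% (only in SOX9+AFOS) and 3.05% (only in AFOS), the SOX share 8.34%, the AP1 share 41.3%, the WT-SOX9 share 43.8% and the noDOX share 60.6%, and the classes held 18803 and 19164 regions. In regions also found in another list these values were 6.25%, 3.58%, 9.52%, 41.2%, 51.3% and 59.0%. The WT-SOX9 and noDOX shares could only rise under that filter, since every region with such a peak passes it. TSSs of all annotated genes gave 8.67% and 6.14%. Scanning whole regions gave a SOX share of 16.9% and an AP1 share of 53.5%, where wider regions hold more matches. By a 2-fold score ratio 5929 regions of both lists were higher in SOX9+AFOS and 5223 lower, the reverse of the order by rank. Without the 7 chromosomes that stood apart by 0.25 (log2) or more, an alternative chosen after seeing the data, 9887 and 17690 regions remained on 13 chromosomes, with shares of 19.95% and 35.7%. Of 38 values under the alternatives of the methods 18 stayed within their interval or 1.5 times, and of 10 under the chromosome settings 8 did. Assigning regions by gene body and 10 kb moved 27 of 38 gene list counts by over 1.5 times. The cause of these differences was not tested. With 1 pooled list a group, no difference could be set against replicate spread.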
